A study of Mus musculus with 21 samples.

Results

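RNA levels of 10 genes that act in the uptake, storage and efflux of lipid were followed in mouse microglia and infiltrating myeloid cells after traumatic brain injury (TBI). The genes were Cd36, Lpl, Apoe, Fabp5, Plin2, Soat1, Nceh1, Abca1, Abcg1 and Ch25h, a list given by name with no threshold on their values, and each matched 1 of the 45706 gene identifiers of the expression table. The list was chosen with earlier results of these data known. Counts of its genes set beside shares of all genes are therefore descriptive. All 10 passed the filter on low counts and were among the 23815 genes tested.

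Macrophages and microglia that clear myelin and dead cells take up large amounts of cholesterol and fatty acids. Lipoprotein lipase and scavenger receptors bring lipid into the cell, fatty acid-binding proteins carry it, and esterified cholesterol is kept in lipid droplets until it is hydrolysed again. Free cholesterol leaves through ATP-binding cassette transporters to apolipoprotein E, and sterol derivatives such as oxysterols switch these transporters on through liver X receptors. In the brain, genes of this group are well known in phagocytic microglia of demyelinating and degenerative disease.

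The study used controlled cortical impact (CCI), in which an impactor injures the exposed cortex, and asked how the binding of fibrin to the integrin CD11b/CD18 shapes the innate immune response. All mice were C57BL/6 males, 17 to 24 weeks old. WT mice and Fgg γ390–396A mice, a knock-in whose fibrinogen clots but lacks the binding motif for CD11b/CD18, were injured, and sham controls were WT mice that received a craniotomy without an impact. CD45low CD11b+ cells (microglia gate, 40000 cells) and CD45hi CD11b+ cells (infiltrating myeloid gate, 25000 cells) were sorted from the lesion, with 2 brains pooled per library. There were 7 groups of 3 libraries: sham microglia, WT and Fgg γ390–396A microglia at 1 d post-CCI, WT and Fgg γ390–396A microglia at 7 d post-CCI, and WT and Fgg γ390–396A infiltrating myeloid cells at 1 d post-CCI. There was no sham group of the Fgg γ390–396A genotype, so in its comparisons with sham mice injury and genotype cannot be told apart, and no myeloid library came from sham mice or from 7 d. A library is a pool of animals, and p-values weigh a difference against the spread between such pools, estimated over all 7 groups.

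Libraries held between 18896963 and 51875790 counts, of which 43.0% to 58.5% came from ribosomal RNA. That share was 43.4% to 47.8% in sham microglia, 50.6% to 58.5% in WT and 47.1% to 52.4% in Fgg γ390–396A microglia at 1 d, and 51.0% to 55.7% and 48.6% to 52.7% at 7 d. TMM factors were 1.39 to 1.55 in sham microglia and 0.741 to 1.29 in injured microglia. With ribosomal RNA genes removed no call of the 10 genes changed. Levels are given in CPM, which divides counts by the TMM-scaled library size, and since transcript length is divided out of the deposited values, levels of different genes can be set beside each other. The summed level of 7 microglia markers (among them Tmem119, P2ry12 and Sall1) was 6154 to 6514 CPM in sham microglia and 75.6 to 209.8 CPM in the myeloid libraries. At 1 d it was 687 to 1646 CPM in WT and 1661 to 3074 CPM in Fgg γ390–396A microglia, and at 7 d 2926 to 3104 and 3478 to 4177 CPM. The 8 monocyte markers (among them Ccr2 and Ly6c2) summed to 6.28 to 66.7 CPM in the 15 microglia libraries and to 830 to 1345 CPM in the myeloid libraries. Sham libraries were unlike in markers of other cells. In replicates 1, 2 and 3 the 6 markers of border-associated macrophages summed to 4.56, 109 and 228 CPM. The 8 neutrophil markers summed to 1.85, 88.0 and 623 CPM, with 3 of the 8 at 0 in replicate 1. For the 8 monocyte markers the sums were 6.28, 6.45 and 47.6 CPM. The part of these cells in the sham levels was not tested. Astrocyte markers summed to 38.7 to 49.3 CPM in sham microglia, 10.2 to 21.1 CPM in injured microglia at 1 d and 31.5 to 37.4 CPM at 7 d, and to 7.50 to 14.1 CPM in myeloid cells. Oligodendrocyte markers summed to 11.8 to 17.8 CPM in sham microglia, 12.2 to 34.3 CPM at 1 d, 23.9 to 53.0 CPM at 7 d and 15.2 to 26.2 CPM in myeloid cells. Over all libraries markers of endothelium summed to 5.45 to 26.8 CPM, of neurons to 0.542 to 8.92 and of red blood cells to 0 to 35.6 CPM. Levels come from bulk RNA, in which fewer cells of a type and less RNA per cell cannot be told apart.

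At 1 d post-CCI most of the 10 genes differed between injured and sham microglia of WT mice. Passing the threshold (more than 1 on the log2 scale in either direction, with adjusted p below 0.05 from the quasi-likelihood F test of edgeR and Benjamini-Hochberg correction across all genes) were 9 of 10, of which 8 were higher and Apoe was lower. Of all genes tested 12.3% were called in this comparison, and 8.06% were called higher. The median log2 fold change was 2.61 over the 10 genes and 0 over all genes. Here and below, shares and medians over all genes were not matched for level. They include genes with as few as 5 counts over all libraries, which can hardly be called, while the 10 genes held 10602 to 1051845 counts each. Against the same sham libraries 4 of 10 were called in Fgg γ390–396A microglia at 1 d, all higher (Lpl, Fabp5, Plin2 and Ch25h), where 6.64% of all genes were called and 5.49% were called higher. Of those genes 1308 were higher and 274 lower, and with the size factors of DESeq2 in place of TMM 1059 were higher and 418 lower. The median over the 10 genes was 1.49. In the same comparisons 6 of 7 microglia markers were called lower in WT and 4 of 7 in Fgg γ390–396A microglia. Of 6 astrocyte markers 1 was called higher and 2 lower in each genotype, and of 6 oligodendrocyte markers 2 were called higher in WT and 1 in Fgg γ390–396A microglia. The part of these cells in the differences from sham was not tested.

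At 7 d 4 genes passed against sham in each genotype, and they were the same 4: Apoe, Lpl, Fabp5 and Ch25h were higher. In WT microglia these 4 of 10 compare with 2.02% of all genes called and 1.93% called higher, and the median over the 10 genes was 1.54. For Fgg γ390–396A microglia 4 of 10 compare with 0.663% called and 0.630% called higher, and the median was 0.88. All 4 comparisons with sham mice use the same 3 sham libraries. Without sham replicate 2, 1 gene was called in Fgg γ390–396A microglia at 7 d, and without sham replicate 1, 2 genes were called. In a fit of the Fgg γ390–396A 7 d and sham libraries alone Lpl was the 1 gene called. Among the markers, 1 of 7 for microglia was lower and 1 of 6 for astrocytes and 2 of 6 for oligodendrocytes were higher in WT microglia at 7 d, and 1 of 6 for oligodendrocytes was higher in Fgg γ390–396A microglia.

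**Figure D1:**
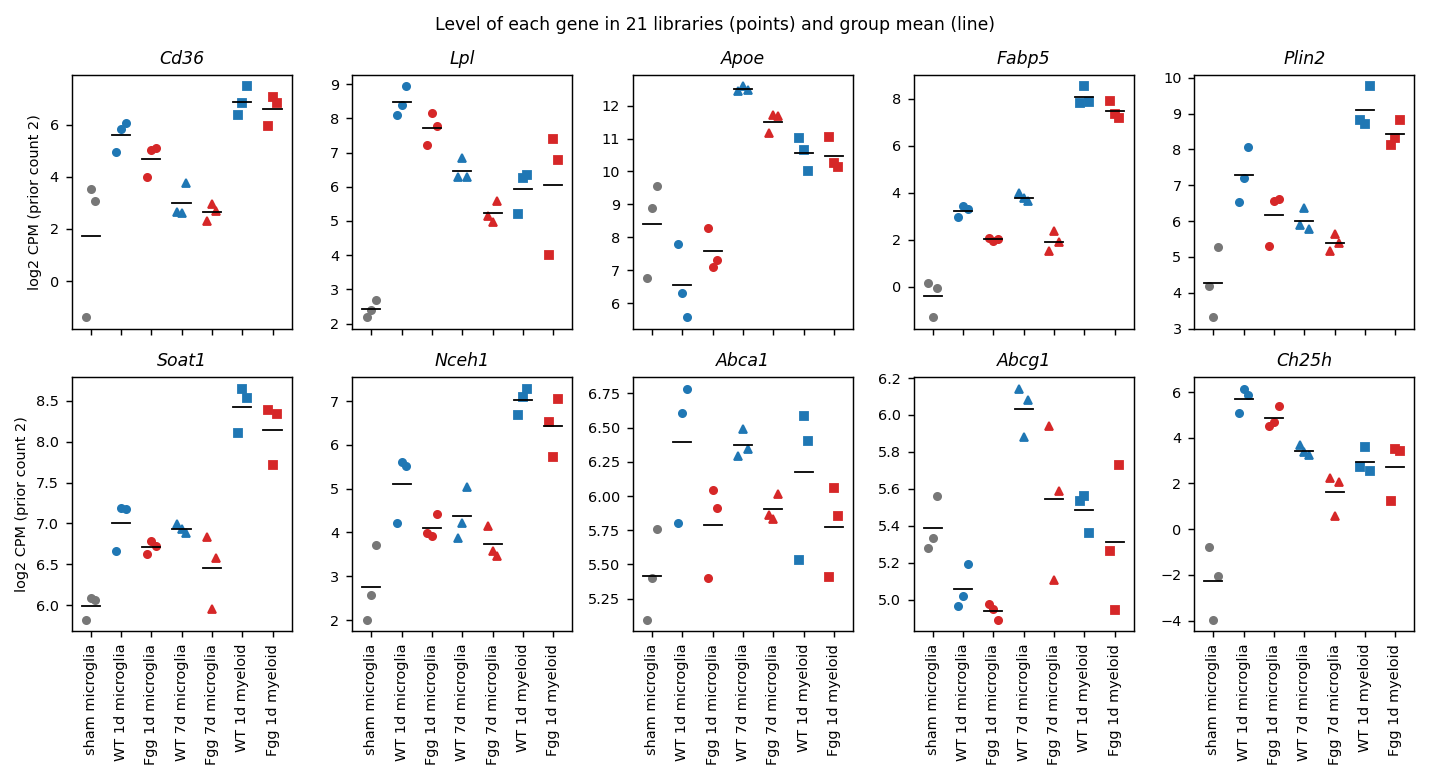
Level of each of the 10 genes in the 21 libraries, as log2 CPM with a prior count of 2, on an axis of its own for each gene. Points are libraries (grey sham, blue WT, red Fgg γ390–396A, circles sham and 1 d microglia, triangles 7 d microglia, squares 1 d myeloid cells) and lines are group means; Lpl and Ch25h peak in microglia at 1 d, Apoe in microglia at 7 d, and Fabp5, Plin2, Soat1, Nceh1 and Cd36 in myeloid cells.

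**Figure D2:**
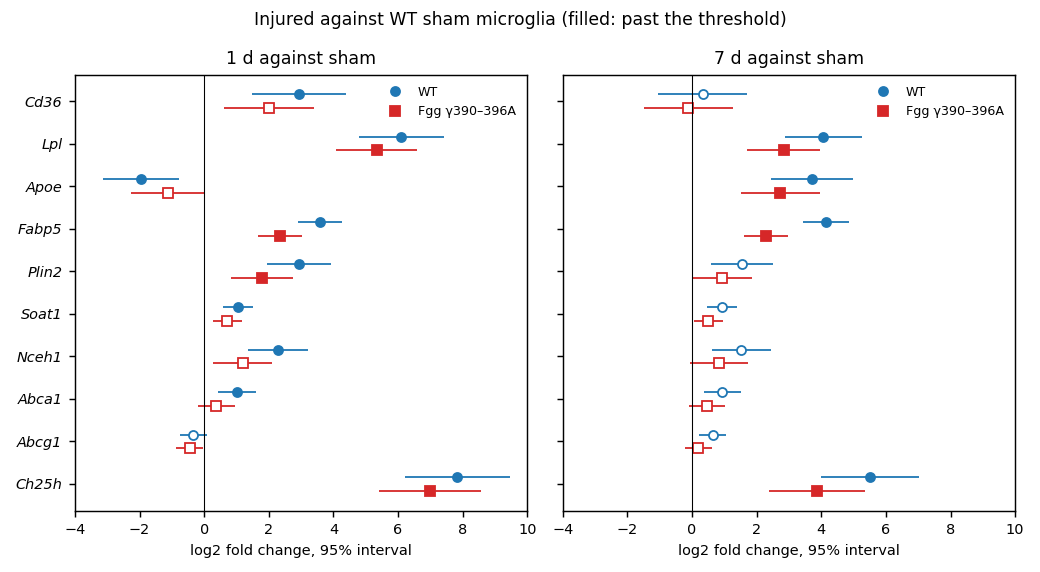
Log2 fold change of each gene in injured against WT sham microglia at 1 d and 7 d post-CCI, with 95% intervals from edgeR (n = 3 libraries per group); filled symbols passed the threshold. At 1 d, 9 WT and 4 Fgg γ390–396A values are filled, and at 7 d 4 and 4.

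Cd36 is a scavenger receptor that takes up long-chain fatty acids and oxidized lipoproteins (ENSMUSG00000002944, chr5:17781690-17888801, GRCm38, minus strand). Its level in sham microglia was 0.319, 11.7 and 8.397 CPM in replicates 1, 2 and 3. In WT microglia it was 31.1, 57.3 and 66.5 CPM at 1 d and 6.16, 5.97 and 13.4 CPM at 7 d. Fgg γ390–396A microglia held 16.02, 32.2 and 33.99 CPM at 1 d and 4.87, 7.61 and 6.35 CPM at 7 d. Sham replicate 1 was far below the others, and every injured library at 1 d was above every sham library. That replicate also had the lowest sham sums of border-associated macrophage, neutrophil and monocyte markers. Cd36 was lower in replicate 3 than in replicate 2, while these sums were higher, and the part of such cells was not tested. Cd36 rose 7.62-fold in WT microglia at 1 d (log2 fold change 2.93, SE 0.69, adjusted p = 0.00492), a call lost when only those groups were fitted (adjusted p = 0.0561), and was 4.04 times the sham level in Fgg γ390–396A microglia, where it did not pass (log2 fold change 2.01, 95% interval 0.62 to 3.41, adjusted p = 0.0661). That value passed with the replicate block, at 2.25 (adjusted p = 0.0107), without Fgg γ390–396A 1 d replicate 1, at 2.29 (adjusted p = 0.0468), and without sham replicate 2, at 2.64 (adjusted p = 0.0455), and the WT log2 fold change was 3.55 without sham replicate 2. From 1 d to 7 d Cd36 fell 6.06-fold in WT microglia (log2 fold change -2.60, SE 0.68, adjusted p = 0.0163), a call that did not hold without WT 1 d replicate 3 (adjusted p = 0.0527), WT 7 d replicate 1 (adjusted p = 0.0654) or WT 7 d replicate 2 (adjusted p = 0.0828). The libraries of the days did not overlap in Fgg γ390–396A microglia either, where the change did not pass (log2 fold change -2.13, 95% interval -3.53 to -0.72, adjusted p = 0.0742). It passed there in DESeq2, at -2.02 (adjusted p = 0.0442), with the replicate block, at -2.04 (adjusted p = 0.0288), and in a fit of those groups alone, at -2.16 (adjusted p = 0.00944). At 7 d the WT and sham libraries overlapped (log2 fold change 0.33, 95% interval -1.04 to 1.70, adjusted p = 0.961).

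Lpl, lipoprotein lipase, frees fatty acids from lipoproteins (ENSMUSG00000015568, chr8:68880491-68907448, plus strand). Its level was 4.49, 5.201 and 6.34 CPM in sham microglia. At 1 d it was 272, 338 and 491 CPM in WT and 148, 284 and 218 CPM in Fgg γ390–396A microglia. The 7 d libraries held 77.7, 115 and 77.1 CPM in WT and 35.6, 31.4 and 47.5 CPM in Fgg γ390–396A microglia. Sham libraries were close to each other and far below every injured library, and WT microglia at 1 d had the highest mean of the 7 groups, overlapping Fgg γ390–396A microglia of that day. Lpl rose 68.6-fold in WT (log2 fold change 6.10, SE 0.62, adjusted p = 1.62e-06) and 40.4-fold in Fgg γ390–396A microglia at 1 d (log2 fold change 5.34, SE 0.60, adjusted p = 1.02e-05). It was still 16.8-fold above sham in WT (log2 fold change 4.07, SE 0.57, adjusted p = 0.00037) and 7.13-fold above sham in Fgg γ390–396A microglia at 7 d (log2 fold change 2.83, SE 0.54, adjusted p = 0.0118). The last call did not hold without sham replicate 1 (adjusted p = 0.0883) or sham replicate 2 (adjusted p = 0.0747). Lpl fell 4.09-fold between 1 d and 7 d in WT (log2 fold change -2.03, SE 0.52, adjusted p = 0.0135) and 5.67-fold in Fgg γ390–396A microglia (log2 fold change -2.50, SE 0.53, adjusted p = 0.00616). The fall in WT microglia did not pass without WT 1 d replicate 3 (adjusted p = 0.0567), WT 7 d replicate 1 (adjusted p = 0.0505) or WT 7 d replicate 3 (adjusted p = 0.0643).

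Apoe encodes apolipoprotein E, which accepts cholesterol at the cell surface and carries it between cells of the brain (ENSMUSG00000002985, chr7:19696109-19699188, minus strand). Among the 10 genes it had the highest mean level in sham microglia, in both 7 d groups and in both myeloid groups. Sham microglia held 108, 476 and 753 CPM, with the lowest value again in replicate 1. At 1 d the level was 221, 78.5 and 47.6 CPM in WT and 313, 138 and 159 CPM in Fgg γ390–396A microglia, and both groups overlapped sham. At 7 d it was 5544, 6177 and 5736 CPM in WT and 2279, 3340.4 and 3278 CPM in Fgg γ390–396A microglia, above every library of the earlier groups. Apoe fell 3.85-fold in WT microglia at 1 d (log2 fold change -1.95, SE 0.56, adjusted p = 0.0203), and the call rested on single libraries. It did not pass without sham replicate 2 (adjusted p = 0.0503) or sham replicate 3, at -1.34 (adjusted p = 0.136). Nor did it pass without WT 1 d replicate 2 (adjusted p = 0.109) or without WT 1 d replicate 3 (adjusted p = 0.117). The log2 fold change was -2.82 without WT 1 d replicate 1, and in a fit of those groups alone the call was lost (adjusted p = 0.111). The same comparison did not pass in Fgg γ390–396A microglia (log2 fold change -1.13, 95% interval -2.28 to 0.02, adjusted p = 0.254).

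At 7 d Apoe was 13.1-fold above sham in WT microglia (log2 fold change 3.71, SE 0.61, adjusted p = 0.00159) and 6.65-fold above sham in Fgg γ390–396A microglia (log2 fold change 2.73, SE 0.58, adjusted p = 0.0238). Without sham replicate 3 these log2 fold changes were 4.32 and 3.34. At 7 d the Fgg γ390–396A call did not hold without sham replicate 1 (adjusted p = 0.0882), sham replicate 2 (adjusted p = 0.105), Fgg γ390–396A 7 d replicate 2 (adjusted p = 0.0713) or Fgg γ390–396A 7 d replicate 3 (adjusted p = 0.0726), or with only those groups fitted (adjusted p = 0.11). From 1 d to 7 d Apoe rose 50.3-fold in WT (log2 fold change 5.65, SE 0.66, adjusted p = 2.6e-05) and 14.6-fold in Fgg γ390–396A microglia (log2 fold change 3.87, SE 0.61, adjusted p = 0.00065), and no library of the earlier day overlapped the later one. Without WT 1 d replicate 1 the WT log2 fold change was 6.53. Border-associated macrophage markers summed to 124 to 226 CPM in WT microglia at 1 d and 148 to 233 CPM at 7 d, and edgeR called 0 of the 6 between the days (1 at an unadjusted p under 0.05, 1 called by DESeq2). They summed to 103 to 136 CPM at 1 d and 87.5 to 228 CPM at 7 d in Fgg γ390–396A microglia. Astrocytes also express Apoe, and their markers summed to 10.2 to 19.5 CPM at 1 d and 31.5 to 33.8 CPM at 7 d in WT microglia. These sums were 15.6 to 21.1 and 34.3 to 37.4 CPM in Fgg γ390–396A microglia, and 1 of the 6 astrocyte markers was called higher in each genotype. The part of these cells in the rise of Apoe was not tested.

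Fabp5 carries fatty acids inside the cell (ENSMUSG00000027533, chr3:10012548-10016607, plus strand). Its level was 1.05, 0.342 and 0.905 CPM in sham microglia, which is 33, 9 and 36 counts. At 1 d it was 7.63, 10.7 and 9.76 CPM in WT and 4.12, 3.801 and 4.02 CPM in Fgg γ390–396A microglia. By 7 d it was 15.6, 13.7 and 12.3 CPM in WT and 2.77, 5.096 and 3.62 CPM in Fgg γ390–396A microglia. The groups did not overlap at either day, with every Fgg γ390–396A library below every WT library and all of them above sham. Fabp5 rose 11.9-fold in WT (log2 fold change 3.58, SE 0.33, adjusted p = 5.5e-07) and 5.08-fold in Fgg γ390–396A microglia at 1 d (log2 fold change 2.35, SE 0.32, adjusted p = 7.32e-05). At 7 d it was 17.7-fold (log2 fold change 4.15, SE 0.34, adjusted p = 2.21e-06) and 4.87-fold above sham (log2 fold change 2.28, SE 0.32, adjusted p = 0.00113), and the latter call was lost when only those groups were fitted (adjusted p = 0.104). Fabp5 has 5 processed pseudogenes with at least 90% identity to its coding sequence, and the 4 with counts held 1994 counts over all libraries, or 4.60% of the family. With them added, the level at 7 d was 16.9, 15.97 and 13.0 CPM in WT and 3.02, 5.85 and 5.16 CPM in Fgg γ390–396A microglia, again without overlap.

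Plin2 coats lipid droplets (ENSMUSG00000028494, chr4:86648386-86670060, minus strand). Sham microglia held 18.3, 9.91 and 38.6 CPM. WT microglia held 93.2, 147 and 271 CPM at 1 d and 58.9, 82.5 and 54.4 CPM at 7 d. Fgg γ390–396A microglia held 39.5, 94.97 and 98.4 CPM at 1 d and 35.7, 49.6 and 41.7 CPM at 7 d. Sham replicate 3 was the highest sham library and lay among the Fgg γ390–396A values of 7 d. Plin2 rose 7.64-fold in WT (log2 fold change 2.93, SE 0.48, adjusted p = 0.00018) and 3.48-fold in Fgg γ390–396A microglia at 1 d (log2 fold change 1.80, SE 0.46, adjusted p = 0.0138). Without sham replicate 3 these log2 fold changes were 3.60 and 2.46. The Fgg γ390–396A call did not hold without sham replicate 1 (adjusted p = 0.0685), sham replicate 2 (adjusted p = 0.0772), Fgg γ390–396A 1 d replicate 2 (adjusted p = 0.0613) or Fgg γ390–396A 1 d replicate 3 (adjusted p = 0.066), or with only those groups fitted (adjusted p = 0.0661). At 7 d it did not pass against sham in WT (log2 fold change 1.55, 95% interval 0.60 to 2.50, adjusted p = 0.0849) or in Fgg γ390–396A microglia (log2 fold change 0.92, 95% interval -0.01 to 1.86, adjusted p = 0.662), and the WT value passed without sham replicate 3, at 2.21 (adjusted p = 0.0153). It also passed in DESeq2, at 1.55 (adjusted p = 0.00938), and with the replicate block, at 1.69 (adjusted p = 0.0145). The WT change from 1 d to 7 d did not pass (log2 fold change -1.38, 95% interval -2.33 to -0.44, adjusted p = 0.0575), and it passed without WT 1 d replicate 1, at -1.68 (adjusted p = 0.0218). The same change passed in DESeq2 (adjusted p = 0.02), with filterByExpr (adjusted p = 0.0496), with the replicate block (adjusted p = 0.0347) and with only those groups fitted (adjusted p = 0.0426).

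Soat1 (also called ACAT1) esterifies cholesterol for storage in droplets (ENSMUSG00000026600, chr1:156424525-156474331, minus strand). Its level was 56.6, 68.3 and 66.7 CPM in sham microglia. WT microglia had 101, 146 and 145 CPM at 1 d and 127, 122 and 118 CPM at 7 d. Fgg γ390–396A microglia had 99.1, 110.0 and 106 CPM at 1 d and 114, 62.2 and 95.4 CPM at 7 d. Its range over the microglia groups was narrow beside that of Lpl or Ch25h, and Fgg γ390–396A 7 d replicate 2 was the only injured library within the range of sham. Soat1 rose 2.04-fold in WT microglia at 1 d (log2 fold change 1.03, SE 0.22, adjusted p = 0.00232), just past the fold threshold. The log2 fold change was 0.95 without sham replicate 1, 0.98 without WT 1 d replicate 2 and 0.98 without WT 1 d replicate 3, each under that threshold. So it was in DESeq2 (0.93) and with DESeq2 size factors (0.93). At 7 d in WT and at 1 d in Fgg γ390–396A microglia it had adjusted p = 0.022 and 0.0437 at log2 fold changes of 0.94 and 0.72, under the fold threshold.

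Nceh1 hydrolyses cholesterol esters and so frees stored cholesterol (ENSMUSG00000027698, chr3:27182965-27284608, plus strand). Sham microglia held 3.95, 5.85 and 13.1 CPM. WT microglia held 18.6, 48.4 and 45.5 CPM at 1 d and 14.6, 18.6 and 32.9 CPM at 7 d. Fgg γ390–396A microglia held 15.9, 15.2 and 21.2 CPM at 1 d and 17.7, 11.9 and 11.04 CPM at 7 d. All WT injured libraries were above all sham libraries, while the Fgg γ390–396A libraries of 7 d reached down into the sham range, whose top was replicate 3. Nceh1 rose 4.897-fold in WT microglia at 1 d (log2 fold change 2.29, SE 0.44, adjusted p = 0.000973), with a log2 fold change of 2.94 without sham replicate 3. Neither the Fgg γ390–396A value at 1 d (log2 fold change 1.19, 95% interval 0.28 to 2.09, adjusted p = 0.101) nor the WT value at 7 d (log2 fold change 1.53, 95% interval 0.62 to 2.44, adjusted p = 0.0722) passed. Without sham replicate 3 both did, at 1.83 (adjusted p = 0.0137) and 2.17 (adjusted p = 0.0124). With the replicate block both passed as well, at 1.30 (adjusted p = 0.0292) and 1.57 (adjusted p = 0.0234), and DESeq2 called the WT value, at 1.52 (adjusted p = 0.00952).

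Abca1, the transporter that loads cholesterol onto lipid-poor apolipoproteins (ENSMUSG00000015243, chr4:53030787-53159895, minus strand), had 34.1, 42.2 and 53.97 CPM in sham microglia. At 1 d it had 55.7, 97.3 and 110.2 CPM in WT and 42.1, 65.9 and 60.3 CPM in Fgg γ390–396A microglia. At 7 d it had 78.3, 89.8 and 81.04 CPM in WT and 58.2, 56.95 and 64.5 CPM in Fgg γ390–396A microglia. WT libraries of both days were above all sham libraries, and Fgg γ390–396A libraries of 1 d overlapped sham. Abca1 rose 2.02-fold in WT microglia at 1 d (log2 fold change 1.01, SE 0.27, adjusted p = 0.0132), which lies at the fold threshold. The call did not hold without sham replicate 1, at 0.87 (adjusted p = 0.0746), or sham replicate 2, at 0.99 (adjusted p = 0.049). Likewise it was lost without WT 1 d replicate 2, at 0.96 (adjusted p = 0.0453), or WT 1 d replicate 3, at 0.84 (adjusted p = 0.0732). It was also under the fold threshold with DESeq2 (0.91), with DESeq2 size factors (0.91) and with the filter filterByExpr (0.99), and it was lost with the replicate block, at 0.99 (adjusted p = 0.00132).

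Abcg1 exports cholesterol to mature lipoproteins (ENSMUSG00000024030, chr17:31057675-31117988, plus strand) and was the 1 gene of the 10 that no comparison called. Its level was 38.8, 40.2 and 47.1 CPM in sham microglia. WT microglia had 31.2, 32.4 and 36.5 CPM at 1 d and 70.6, 58.8 and 67.6 CPM at 7 d. Fgg γ390–396A microglia had 31.4, 30.9 and 29.6 CPM at 1 d and 61.5, 34.5 and 48.01 CPM at 7 d. At 1 d all injured libraries were below all sham libraries, and at 7 d all WT libraries were above them. The differences from sham were small (log2 fold change -0.33, 95% interval -0.75 to 0.08, adjusted p = 0.288 in WT at 1 d, and log2 fold change 0.64, 95% interval 0.23 to 1.06, adjusted p = 0.11 in WT at 7 d). Between 1 d and 7 d the WT log2 fold change was 0.98 (SE 0.20, adjusted p = 0.0028), under the fold threshold, and it passed with DESeq2, at 1.06 (adjusted p = 2.91e-06), with DESeq2 size factors in edgeR, at 1.06 (adjusted p = 0.00121), and without WT 7 d replicate 2, at 1.05 (adjusted p = 0.00593).

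Ch25h makes 25-hydroxycholesterol, an oxysterol (ENSMUSG00000050370, chr19:34473778-34475164, minus strand). It was nearly absent from sham microglia, with 0.51, 0 and 0.176 CPM, or 16, 0 and 7 counts. At 1 d it was 34.3, 70.9 and 58.2 CPM in WT and 22.9, 26.03 and 41.99 CPM in Fgg γ390–396A microglia, and at 7 d 12.7, 10.4 and 9.55 CPM and 4.71, 1.44 and 4.16 CPM. Every injured library was above every sham library, and 1 d was above 7 d in both genotypes without overlap. The log2 fold change against sham was 7.84 in WT (SE 0.78, adjusted p = 1.14e-06) and 6.99 in Fgg γ390–396A microglia at 1 d (SE 0.76, adjusted p = 6.21e-06), the largest of the 10 genes in each. The values at 7 d were 5.51 in WT (SE 0.73, adjusted p = 0.000222) and 3.86 in Fgg γ390–396A microglia (SE 0.71, adjusted p = 0.00999). The sizes rest on the few sham counts. Without sham replicate 1 the 4 values were 9.003, 8.16, 6.68 and 5.02. Without sham replicate 2 the Fgg γ390–396A value at 7 d was 3.36 (adjusted p = 0.0503), and with only those groups fitted its adjusted p was 0.18. Ch25h fell between 1 d and 7 d, 5.02-fold in WT (log2 fold change -2.33, SE 0.57, adjusted p = 0.0104) and 8.77-fold in Fgg γ390–396A microglia (log2 fold change -3.13, SE 0.59, adjusted p = 0.00279), and the WT call did not hold without WT 7 d replicate 3 (adjusted p = 0.0523).

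Between 1 d and 7 d, 4 of the 10 genes changed in WT microglia (Apoe higher, and Lpl, Ch25h and Cd36 lower), where 7.06% of all genes were called. Among the 10 genes 3 changed in Fgg γ390–396A microglia (Apoe higher, and Lpl and Ch25h lower), where 3.54% of all genes were called, and Cd36 passed under other settings only. Without WT 1 d replicate 3, WT 7 d replicate 1 or WT 7 d replicate 3, 2 genes were called in WT microglia. Of the 7 microglia markers edgeR called 4 higher at 7 d in WT and 0 in Fgg γ390–396A microglia (4 and 1 called by DESeq2). Their median log2 fold changes were 1.06 and 0.63, and the part of this shift in the changes of the 10 genes was not tested. The difference between the genotypes in the change from 1 d to 7 d was tested as an interaction at an adjusted p under 0.1, and edgeR called 0 of the 10 genes and 0% of all genes tested. At an unadjusted p under 0.05 there were 653 genes, of which 1 was among the 10, and DESeq2 called 33 genes but none of the 10. That gene was Apoe, at -1.79 on the log2 scale (95% interval -3.41 to -0.17, unadjusted p = 0.0324, adjusted p = 1): its genotype difference was 0.81 at 1 d and -0.97 at 7 d.

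**Figure D3:**
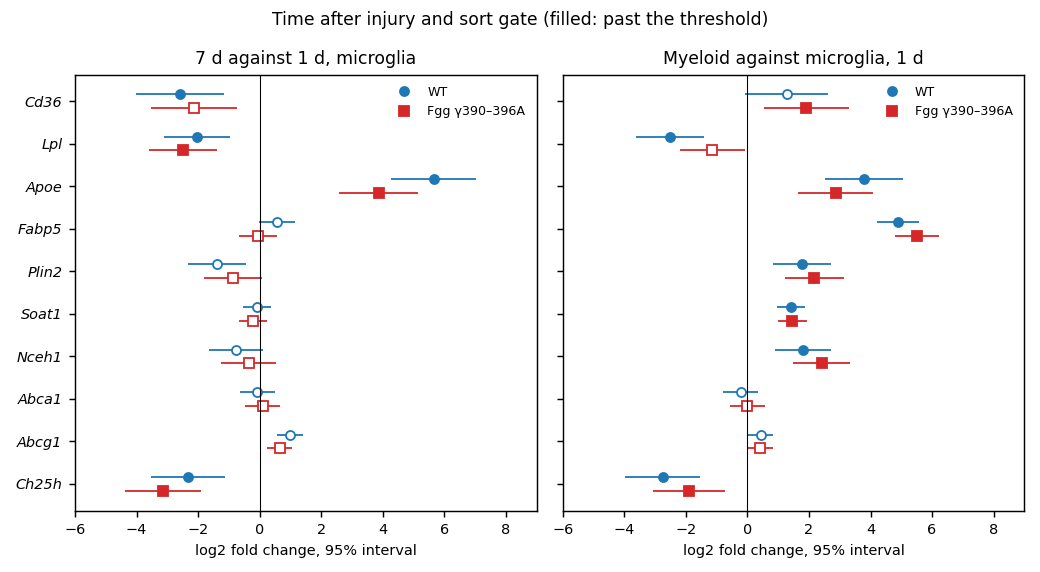
Log2 fold change of each gene from 1 d to 7 d in microglia (left) and in myeloid cells against microglia at 1 d (right), for WT and Fgg γ390–396A mice, with 95% intervals from edgeR (n = 3 libraries per group); filled symbols passed the threshold. Apoe is positive in both panels, and Lpl and Ch25h are negative in both.

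The genotype comparison set injured Fgg γ390–396A microglia against injured WT microglia of the same day. Without a sham group of the Fgg γ390–396A genotype, a changed response to injury cannot be told apart from a difference present before injury. At 7 d 1 of the 10 genes passed the threshold between genotypes (more than 1 on the log2 scale, with adjusted p below 0.1), and it was Fabp5, which was 3.63-fold lower in Fgg γ390–396A than in WT microglia (log2 fold change -1.86, SE 0.29, adjusted p = 0.0149). This compares with 0.0378% of all genes, or 9 of 23815. The call did not hold without Fgg γ390–396A 7 d replicate 1, at -1.67 (adjusted p = 0.141), Fgg γ390–396A 7 d replicate 3, at -1.83 (adjusted p = 0.191), or WT 7 d replicate 1, at -1.76 (adjusted p = 0.107). It held under DESeq2, at -1.88 (adjusted p = 2.44e-07), and in a fit of the 6 libraries alone, at -1.86 (adjusted p = 0.087). The microglia sort can hold other cells that express Fabp5, whose level in the myeloid libraries was 226, 372 and 233 CPM in WT and 239, 162 and 147 CPM in Fgg γ390–396A mice. At 7 d the 8 monocyte markers summed to 21.3 to 51.2 CPM in WT and 25.0 to 34.6 CPM in Fgg γ390–396A microglia, and edgeR called 0 of the 8 between genotypes (0 at an unadjusted p under 0.05, 0 called by DESeq2). The 8 neutrophil markers summed to 45.8 to 662 CPM in WT and 180 to 262 CPM in Fgg γ390–396A microglia. Markers of border-associated macrophages summed to 148 to 233 CPM and 87.5 to 228 CPM. Microglia markers summed to 2926 to 3104 CPM and 3478 to 4177 CPM, so the groups did not overlap there. The part of these cells in the difference of Fabp5 was not tested. Fabp5 and Nceh1 lie on chromosome 3, which also carries Fgg (chr3:83007724-83015049), at distances of 73.0 and 55.7 megabases, and a contribution of sequence linked to the knock-in allele was not tested.

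**Figure D4:**
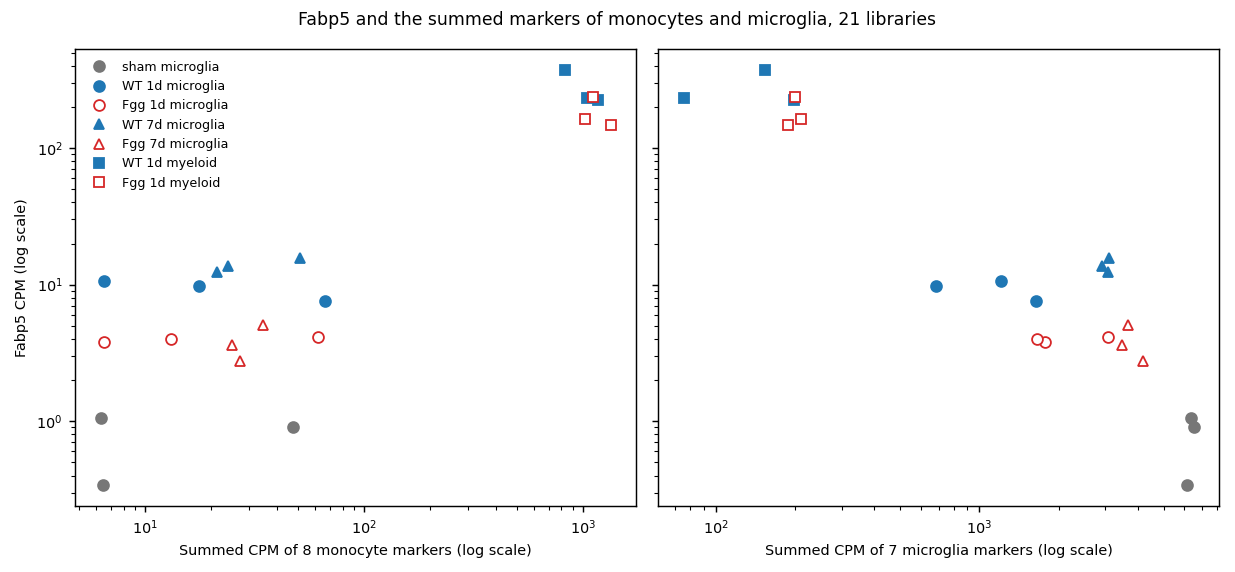
Fabp5 CPM against the summed CPM of 8 monocyte markers (left) and 7 microglia markers (right) in the 21 libraries, all axes on a log scale; open symbols are Fgg γ390–396A. At monocyte sums between 21.3 and 51.2 CPM, the 3 WT 7 d microglia libraries (filled triangles) hold 12.3 to 15.6 CPM of Fabp5 and the 3 Fgg γ390–396A libraries (open triangles) 2.77 to 5.10 CPM.

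All 10 genes had a negative log2 fold change in Fgg γ390–396A against WT microglia at 7 d, from -1.86 to -0.43, with a median of -0.66 where that of all genes was 0. In 7 of them every Fgg γ390–396A library was below every WT library (Apoe, Lpl, Fabp5, Abca1, Plin2, Soat1 and Ch25h), and 5.28% of all genes tested had that pattern. The second largest difference was in Ch25h (log2 fold change -1.65, 95% interval -2.84 to -0.46, adjusted p = 1), followed by Lpl (log2 fold change -1.23, 95% interval -2.29 to -0.17, adjusted p = 1) and Apoe (log2 fold change -0.97, 95% interval -2.12 to 0.17, adjusted p = 1). None of these 3 passed. At an unadjusted p under 0.05 there were 795 genes, 4 of them among the 10 (Fabp5, Ch25h, Lpl and Abcg1), and DESeq2 called 80 genes, of which Fabp5 was the 1 among the 10. The interval of Abcg1 was -0.87 to -0.04, and those of the other 6 genes, such as Abca1 (-1.04 to 0.10) and Soat1 (-0.89 to 0.03), held 0.

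At 1 d 0 of the 10 genes passed between genotypes in edgeR, which called 13 genes or 0.0546% of all tested. At an unadjusted p under 0.05 there were 1209 genes, 4 of them among the 10 (Fabp5, Abca1, Plin2 and Nceh1), and DESeq2 called 104 genes, 1 of them among the 10. That 1 was Fabp5, at -1.26 (adjusted p = 0.00568) in DESeq2, against log2 fold change -1.23, 95% interval -1.84 to -0.63, adjusted p = 0.336 in edgeR, where it passed without WT 1 d replicate 1, at -1.36 (adjusted p = 0.0963). Fabp5 was also the 1 gene in which all Fgg γ390–396A libraries were below all WT libraries, a pattern of 2.99% of all genes. Of the 10 log2 fold changes 9 were negative, with a median of -0.80, and that of Apoe was positive (log2 fold change 0.81, 95% interval -0.33 to 1.96, adjusted p = 0.89). Microglia markers differed as well, with summed levels of 687 to 1646 CPM in WT and 1661 to 3074 CPM in Fgg γ390–396A microglia at 1 d and 4 of the 7 at an unadjusted p under 0.05 (0 called by edgeR or DESeq2), and their part in these differences was not tested. The same replicate numbers deviated together in this comparison, and with the number as a block 0 of the 10 genes passed.

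In infiltrating myeloid cells 0 of the 10 genes passed between genotypes at 1 d in edgeR, where 108 genes or 0.453% of all were called. At an unadjusted p under 0.05 there were 2749 genes, of which Fabp5 was the 1 among the 10 (log2 fold change -0.60, 95% interval -1.18 to -0.02, adjusted p = 0.42), and DESeq2 called 841 genes and none of the 10. No gene of the 10 had all Fgg γ390–396A libraries below all WT libraries, while 4.85% of all genes did. The lowest estimate was that of Plin2 (log2 fold change -0.73, 95% interval -1.66 to 0.20, adjusted p = 0.516) and the highest that of Lpl (log2 fold change 0.61, 95% interval -0.44 to 1.66, adjusted p = 0.659). Whether the genotype difference depended on the sort gate was tested as an interaction, which edgeR called for 0 of the 10 genes and for 11 genes or 0.0462% of all. At an unadjusted p under 0.05 there were 1994 genes, 0 of them among the 10, and DESeq2 called 259 genes and 0 of the 10. The largest estimate was that of Lpl (log2 fold change 1.37, 95% interval -0.11 to 2.85, adjusted p = 0.62).

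**Figure D5:**
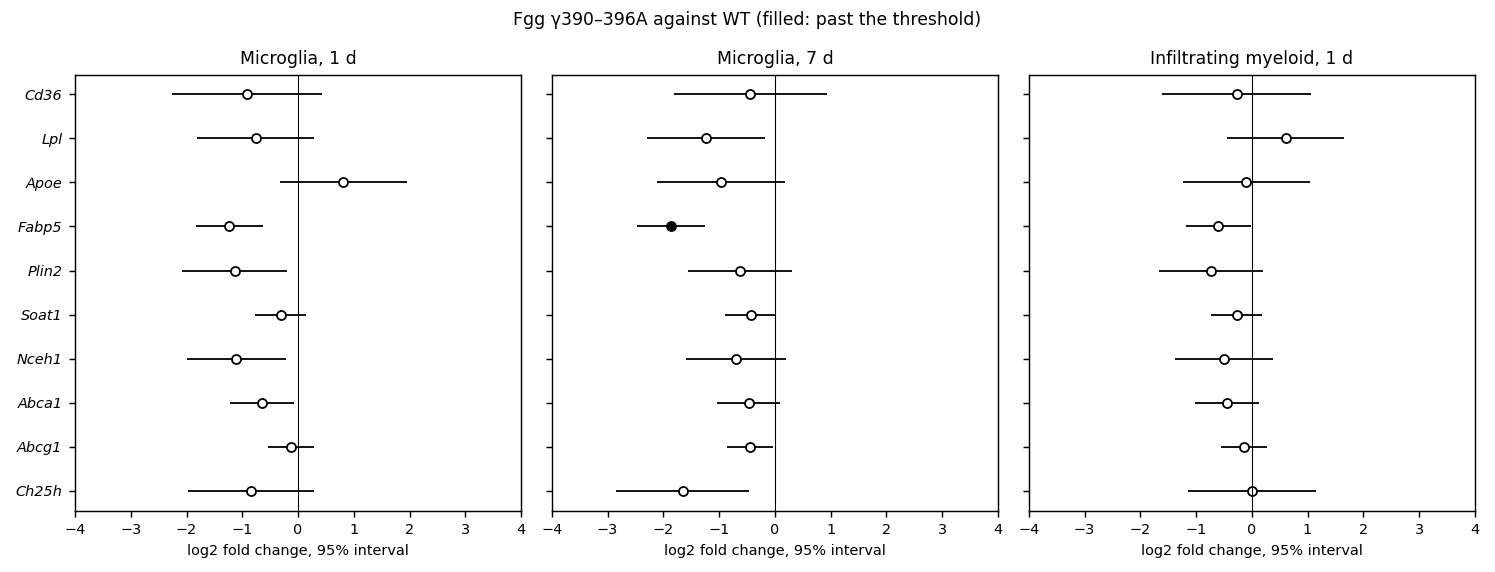
Log2 fold change of each gene in Fgg γ390–396A against WT mice in microglia at 1 d and 7 d and in infiltrating myeloid cells at 1 d, with 95% intervals from edgeR (n = 3 libraries per group). The 1 filled symbol, which passed the threshold, is Fabp5 in microglia at 7 d at -1.86, and all 10 values in that panel lie below 0.

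The sort gates differed in most of the genes. In WT mice at 1 d 7 of 10 were called between myeloid cells and microglia, with Apoe, Fabp5, Plin2, Soat1 and Nceh1 higher and Lpl and Ch25h lower in myeloid cells, where 11.9% of all genes were called and 5.61% were called higher. In Fgg γ390–396A mice 7 of 10 were called, with Apoe, Fabp5, Plin2, Soat1, Cd36 and Nceh1 higher and Ch25h lower, where 16.7% of all genes were called and 6.96% were called higher. The median over all genes was -0.13 in Fgg γ390–396A mice, and -0.01 with DESeq2 size factors, on the log2 scale. Fabp5 showed the largest difference, 29.6-fold in WT (log2 fold change 4.89, SE 0.33, adjusted p = 3.75e-08) and 45.8-fold in Fgg γ390–396A mice (log2 fold change 5.52, SE 0.34, adjusted p = 9.65e-09). Apoe was at 2093, 1624 and 1044 CPM in WT and 2102, 1216 and 1121 CPM in Fgg γ390–396A myeloid cells, 13.7-fold and 7.28-fold above the microglia of 1 d (adjusted p = 0.00019 and 0.0014). Without WT 1 d replicate 1 of microglia the WT log2 fold change was 4.65 in place of 3.78. The myeloid libraries held 2356 to 12659 CPM of neutrophil markers and 1165 to 2027 CPM of border-associated macrophage markers, and the part of each cell type in these levels was not tested.

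The storage genes Plin2 and Soat1 were high in the myeloid gate, and so was Nceh1, which frees stored cholesterol. Plin2 was at 455, 419 and 873 CPM in WT and 279, 322 and 450.1 CPM in Fgg γ390–396A myeloid cells, 3.42-fold (log2 fold change 1.77, SE 0.46, adjusted p = 0.0103) and 4.52-fold above microglia (log2 fold change 2.18, SE 0.46, adjusted p = 0.00197). The WT call did not hold without WT 1 d microglia replicate 1 (adjusted p = 0.0576) or WT 1 d myeloid replicate 3 (adjusted p = 0.0682). Soat1 was at 274, 401 and 369.6 CPM and 335, 209.8 and 323 CPM, 2.67-fold and 2.75-fold higher (adjusted p = 0.000153 and 9.29e-05). Nceh1 was at 102, 136 and 156 CPM and 91.8, 52.4 and 133 CPM, 3.49-fold and 5.304-fold higher (adjusted p = 0.00627 and 0.00057). For these 3 genes no microglia library of either genotype reached the myeloid libraries of its own genotype. Cd36 was at 82.2, 113 and 179 CPM in WT and 61.4, 133 and 115 CPM in Fgg γ390–396A myeloid cells. It passed in the latter (log2 fold change 1.91, SE 0.66, adjusted p = 0.0436) and not in WT (log2 fold change 1.27, 95% interval -0.08 to 2.62, adjusted p = 0.211). The Fgg γ390–396A call did not hold without any 1 of Fgg γ390–396A microglia replicates 1, 2 and 3 (adjusted p = 0.161, 0.0828 and 0.0735) or myeloid replicates 2 and 3 (adjusted p = 0.112 and 0.0817). The WT difference passed when only those groups were fitted, at 1.34 (adjusted p = 0.0379).

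At 1 d Lpl and Ch25h had higher means in injured microglia than in myeloid cells of the same genotype. Sham microglia were below every myeloid library in both genes. Lpl was at 36.6, 75.9 and 81.2 CPM in WT myeloid cells, 5.69-fold below microglia (log2 fold change -2.51, SE 0.53, adjusted p = 0.00222). It was at 16.1, 169 and 109.7 CPM in Fgg γ390–396A myeloid cells, where the groups overlapped and the difference did not pass (log2 fold change -1.14, 95% interval -2.19 to -0.08, adjusted p = 0.121). It passed without Fgg γ390–396A myeloid replicate 2, at -1.78 (adjusted p = 0.0278), and with the replicate block, at -1.31 (adjusted p = 0.0379). Ch25h was at 6.63, 11.9 and 5.77 CPM in WT and 2.304, 11.3 and 10.5 CPM in Fgg γ390–396A myeloid cells, 6.74-fold (log2 fold change -2.75, SE 0.58, adjusted p = 0.00227) and 3.75-fold below microglia (log2 fold change -1.91, SE 0.56, adjusted p = 0.0191). The Ch25h call of Fgg γ390–396A mice did not hold without microglia replicate 3 (adjusted p = 0.0765) or myeloid replicate 1 (adjusted p = 0.0868), or with only those groups fitted (adjusted p = 0.0649). The efflux transporters did not pass in either genotype: Abca1 was at 46.2, 96.1 and 84.7 CPM and 42.4, 66.7 and 57.7 CPM, and Abcg1 at 46.3, 47.2 and 41.1 CPM and 38.4, 30.7 and 52.9 CPM, in WT and Fgg γ390–396A myeloid cells.

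Another 48 genes of lipid handling were counted beside the 10, and all 48 passed the filter. In WT microglia at 1 d 6 were called higher and 5 lower against sham, so 11 of 48 beside 12.3% of all genes. Of the higher ones the smallest adjusted p were those of the scavenger receptors Msr1 (88.5-fold, adjusted p = 2.39e-07) and Olr1 (6.99-fold, adjusted p = 0.000235) and the droplet protein Hilpda (5.28-fold, adjusted p = 0.000708). Among the lower ones were the lipase Lipe (log2 fold change -1.36, adjusted p = 0.00251), the nuclear receptor Ppard (log2 fold change -1.13, adjusted p = 0.00853) and the apolipoprotein Apoc1 (adjusted p = 0.00879), which was at 0.223 to 4.44 CPM in sham and at 0 in all 3 WT libraries of 1 d. In Fgg γ390–396A microglia at 1 d 5 of 48 were called higher and 0 lower, beside 6.64% of all genes called, led by Msr1 (46.3-fold, adjusted p = 1.37e-06), the lipoprotein receptor Scarb1 (2.09-fold, adjusted p = 0.013) and the droplet protein Plin3 (2.79-fold, adjusted p = 0.0146). At 7 d 6 of 48 were called higher and 0 lower in WT microglia, beside 2.02% of all genes called, led by the apolipoprotein Apoc2 (22.8-fold, adjusted p = 0.0045), Olr1 (5.52-fold, adjusted p = 0.00477) and the fatty acid carrier Fabp3 (0 to 0.0754 CPM in sham and 4.25 to 4.84 CPM at 7 d, adjusted p = 0.0113). In Fgg γ390–396A microglia at 7 d 1 of 48 was called higher, beside 0.663% of all genes called. It was Olr1 (5.97-fold, adjusted p = 0.00901).

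Between genotypes edgeR called 0 of the 48 genes in microglia at 1 d (7 at an unadjusted p under 0.05, 1 called by DESeq2), in microglia at 7 d (4 and 0) and in myeloid cells (9 and 3). From 1 d to 7 d 3 were higher and 2 lower in WT microglia and 2 higher and 2 lower in Fgg γ390–396A microglia, beside 7.06% and 3.54% of all genes called. Called in both were Apoc1 and the fatty acid transporter Slc27a1 (higher) and Msr1 and Hilpda (lower), and the lipid transfer protein Pltp was the third called higher in WT. These 5 genes were named after their values were seen, and the difference between the genotypes was called for 0 of the 48 (2 at an unadjusted p under 0.05, 0 called by DESeq2). Between the sort gates 13 were higher and 4 lower in WT myeloid cells and 15 higher and 5 lower in Fgg γ390–396A myeloid cells, beside 11.9% and 16.7% of all genes called. In the storage list 5 of 8 were higher in WT and 4 of 8 in Fgg γ390–396A myeloid cells, and in the list of apolipoproteins and lipoprotein remodelling 3 of 6 and 4 of 6.

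The 10 genes followed more than 1 course over the 7 groups. Likeness was measured as the root mean square difference between the mean log2 CPM of the groups, each gene centred on its own mean, over 7887 genes with a mean log2 CPM of at least 2, and a smaller value means a closer course. Plin2 and Nceh1 were the closest pair of the 10 (0.247), followed by Abca1 and Abcg1 (0.393), Plin2 and Cd36 (0.542), Soat1 and Nceh1 (0.597) and Lpl and Ch25h (0.622). Abca1 and Abcg1 both varied little, and a small value does not mean the same direction. From sham to WT 1 d microglia the mean went from 43.4 to 87.7 CPM for Abca1 and from 42.0 to 33.4 CPM for Abcg1. The nearest other genes were Dok2, Tagln2 and Tubb6 for Cd36 (0.103 to 0.261) and Cd72, Nes and Ccl12 for Lpl (0.266 to 0.569). They were Cxcl9, H2-Q7 and Axl for Apoe (0.801 to 0.867) and Bhlhe40, Ecm1 and Ass1 for Fabp5 (0.351 to 0.428). They were Anxa5, Plaur and Fth1 for Plin2 (0.125 to 0.242), Tctex1d2, Atp6v0c and Pin4 for Soat1 (0.0915 to 0.0966) and Ftl1, 1700047I17Rik2 and Vat1 for Nceh1 (0.129 to 0.189). Among the transporters they were Mmd, Pdgfa and Map3k7 for Abca1 (0.157 to 0.164) and Hist1h2bn, Gm9845 and Mitf for Abcg1 (0.0846 to 0.121). For Ch25h the nearest was Lpl, then Cd72 and Ccl12 (0.655 and 1.01). Apoe and Ch25h thus had the most distant neighbours, and genes that vary little have near neighbours by this measure.

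The promoters of the genes were also read for short motifs, and a link between motif and course was not tested. RefSeq windows of 300 bases on GRCm38.p6, from 250 bases before to 50 bases after a transcription start, were found for 7 of the 10 genes (Cd36, Apoe, Plin2, Soat1, Nceh1, Abca1 and Ch25h). These genes had 9 windows, so counts of genes below are not the same measure as the shares of windows beside them. Searched on both strands were the E-box CACGTG, the nuclear receptor hexamer AGGTCA, the AP-1 site TGANTCA and the NF-kB site, which do not overlap each other in the matches found. The E-box was in the windows of 3 of 7 genes (Plin2, Nceh1 and Abca1) and in 7.15% of all 32851 windows. In course Abca1 was unlike the other 2, at 1.46 from Plin2 and 1.28 from Nceh1. The hexamer was in 2 of 7 (Plin2 and Cd36) and in 16.3% of all windows. AP-1 and NF-kB sites were in 0 of 7, and in 7.81% and 1.63% of all windows. The 3 windows with an E-box, chosen after the matches were seen, are shown from their first base to the end of the E-box, 5′ to 3′ on the strand of the gene, with matches in capitals. The stretches are chr3:27182754-27182983 (plus strand, E-box from 26 bases before the RefSeq start) for Nceh1, chr4:86670058-86670309 (minus strand, hexamer from 218 and E-box from 4 bases before it) for Plin2 and chr4:53160037-53160145 (minus strand, E-box from 147 bases before it) for Abca1. By the GENCODE coordinates given above, the last 19 bases for Nceh1, with its E-box, and the last 3 for Plin2 lie inside the gene.
Nceh1: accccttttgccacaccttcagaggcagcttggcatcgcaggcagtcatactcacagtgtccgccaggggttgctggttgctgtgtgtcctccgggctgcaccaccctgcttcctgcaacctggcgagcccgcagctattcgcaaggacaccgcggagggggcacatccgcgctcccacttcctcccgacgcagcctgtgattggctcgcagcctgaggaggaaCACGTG
Plin2: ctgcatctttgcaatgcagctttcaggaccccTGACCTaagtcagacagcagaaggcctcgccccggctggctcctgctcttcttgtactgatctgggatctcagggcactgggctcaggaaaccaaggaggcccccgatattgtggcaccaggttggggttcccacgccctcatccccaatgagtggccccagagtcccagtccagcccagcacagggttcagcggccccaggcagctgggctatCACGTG
Abca1: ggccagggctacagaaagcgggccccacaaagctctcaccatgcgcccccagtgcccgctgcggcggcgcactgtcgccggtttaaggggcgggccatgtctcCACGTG
A match describes these letters and was not tested as a binding site.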

How the data were processed

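Bulk RNA-seq was analysed in 21 libraries, 7 groups of 3 by the labels. The authors deposited expected counts per gene from salmon within the nf-core/rnaseq pipeline (GRCm38), scaled so that transcript length is divided out within each library and not normalised between libraries. The annotation release behind them is not given in the sources used here, and symbols and coordinates come from GENCODE M21 (45143 of 45706 identifiers matched). Expected counts were rounded to whole numbers. Genes with at least 5 counts over all libraries were tested with edgeR 4.0.16 (TMM, quasi-likelihood F test, 1 mean per group over all 21 libraries, common biological coefficient of variation 0.643) in R 4.3.3, with Benjamini-Hochberg adjustment over all 23815 genes. DESeq2 1.42.0 was an alternative, as the study used DESeq2 1.36.0. A level of 3 counts is 0.0448 to 0.158 CPM. Counts here are length-scaled, so the number of reads behind them depends on the transcript. This level does not cover the spread between libraries.

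The fitting code was tested on simulated counts. Near-copies were searched with BLAST+ 2.17.0. Replicate numbers paired the libraries in 1 comparison, Fgg γ390–396A against WT microglia at 1 d, by a hint from the data: same-numbered libraries deviated together (correlations of 0.115 to 0.474). The mean between other numbers was -0.13. Centring each gene within its group of 3 ties that mean to the same-numbered values, so it is no baseline for them. The bar was a correlation above 0.1 for every same-numbered pair. Between the sort gates these correlations were 0.0573 to 0.202 in WT and -0.00654 to 0.0874 in Fgg γ390–396A mice. Whether both gates of a number came from the same brains is not given in the sources used here. The gates were compared unpaired. The allele changes fibrinogen, which is made by the liver, so RNA of sorted cells does not check the genotype.

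The 10 genes, the 48 further lipid genes and the marker lists of 9 cell types were chosen with earlier results of these data known. A gene of the microglia list is not reported here and was left out of its sums and counts. Named were all 10 genes, of the further lipid genes called against sham or between genotypes the 3 of lowest adjusted p per direction, and the 3 genes nearest in course to each of the 10.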

Additional observations from a re-analysis of the deposited data

Results flagged for a closer look

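In 7 results the level of a gene differed between the time points of 1 genotype by the test of that difference (edgeR's quasi-likelihood test). From 1 d to 7 d the log2 fold change in WT microglia was 5.65 for Apoe, -2.03 for Lpl, -2.33 for Ch25h and -2.60 for Cd36. In Fgg γ390–396A microglia it was 3.87 for Apoe, -2.50 for Lpl and -3.13 for Ch25h. Apoe moved opposite to these other genes in both genotypes. By mean level in microglia Apoe was the most abundant of the 10 genes at 7 d and Lpl at 1 d. In Fgg γ390–396A microglia at 1 d the means of Lpl and Apoe were close, at 216 and 203 CPM.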

How the results depend on the processing

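Of 130 values (10 genes in 13 comparisons) 43 passed their threshold, and 27 of these passed under every alternative. Of the 87 that did not pass, 10 passed under at least 1 alternative, and of 20 values whose sign changed under an alternative 0 had passed. In Fgg γ390–396A microglia at 7 d against sham 1 of the 10 genes passed when only those libraries were fitted, against 4 with all libraries, and between genotypes in microglia at 1 d 1 passed in DESeq2, against 0 in edgeR. With 1 library left out, the number of genes that passed was 6 to 9 for WT 1 d against sham, 4 to 6 for WT 7 d, 3 to 5 for Fgg γ390–396A 1 d and 1 to 4 for Fgg γ390–396A 7 d against sham, 2 to 5 for WT and 3 for Fgg γ390–396A between days, 0 to 1 between genotypes at each day, 0 in myeloid cells, 6 to 7 (WT) and 5 to 7 (Fgg γ390–396A) between gates, and 0 for both interactions. The cause of these changes was not tested.

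Counts over all genes depended more on the setting. DESeq2 called 104 genes in place of 13 between genotypes at 1 d, 80 in place of 9 at 7 d, 841 in place of 108 in myeloid cells, 347 in place of 158 for Fgg γ390–396A 7 d and 820 in place of 481 for WT 7 d against sham, and 33 in place of 0 and 259 in place of 11 for the interactions with day and gate. With only the groups compared, the counts were 8, 19 and 7 between genotypes (1 d, 7 d, myeloid), 85 for Fgg γ390–396A 7 d against sham, 2211 in place of 3967 between gates in Fgg γ390–396A mice and 0 for the gate interaction. In myeloid cells filterByExpr gave 176 and the replicate block 66 genes between genotypes, and without a fold threshold Fgg γ390–396A microglia had 1343 in place of 844 between days. Adding the replicate block, 16 genes and 0 of the 10 passed between genotypes at 1 d, where the numbers paired the libraries. Elsewhere the bar for pairing was not met, and with the block 6 in place of 4 of the 10 passed for WT 7 d and 6 in place of 4 for Fgg γ390–396A 1 d against sham. Low levels limit Fabp5 and Ch25h in sham microglia, where libraries held at most 36 and 16 length-scaled counts.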
